A study of Mus musculus with 3 samples.

Results

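The major histocompatibility complex (MHC) and antigen processing genes were followed in the aorta of mice that carry 1 intact Plk1 allele. Members were taken by name: every probe whose gene name, or whose accession's current symbol, starts with H2-, or is B2m, Cd74, Ciita, Tap1, Tap2, Tapbp, Psmb8, Psmb9, Psmb10, Psme1 or Psme2. This gave 47 of the 27670 gene names on the array, read by 71 of 41174 probes on 107 of 43379 spots; no probe was found for Psme2. Each of 3 two-colour arrays of 1 slide held RNA of a single Plk1(+/-) aorta in Cy5 (samples 1, 2 and 3) and RNA of the same pool of 3 wild-type aortas in Cy3. All animals were of 129/CD1 strain and 3 to 5 months old, per the labels, which give no H2 haplotype. No array had the dyes exchanged, so dye and genotype cannot be told apart, and the pool is 1 control sample without a spread of its own. Plk1 encodes polo-like kinase 1, which drives mitosis. For Plk1 itself the 3 samples read -0.06, -0.08 and 0.42 as log2 of Plk1(+/-) over pool, and no lower signal was detected (limma adjusted p = 0.705).

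MHC class I molecules are made of a heavy chain and beta-2-microglobulin, stand on nearly all nucleated cells and show peptides cut from proteins of the cell's own interior. The immunoproteasome cuts those peptides, the TAP transporter carries them into the endoplasmic reticulum, and tapasin helps to load them. MHC class II molecules are pairs of an alpha and a beta chain, stand chiefly on B cells, dendritic cells and activated macrophages, and show peptides of proteins taken up from outside; the invariant chain Cd74 guards their groove, and H2-DM exchanges it for a peptide.

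In the mouse most of these genes lie on chromosome 17. The probes are oligonucleotides of 60 bases, and those the results turn on are shown first, for the chains of class II, their loading and transcription, and the inducible proteasome subunits. They read, 5′ to 3′:
H2-Ab1 A_51_P215237: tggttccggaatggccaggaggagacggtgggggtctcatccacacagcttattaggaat
H2-Aa A_52_P343306: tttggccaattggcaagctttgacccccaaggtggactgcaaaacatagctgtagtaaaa
H2-Eb1 A_51_P393226: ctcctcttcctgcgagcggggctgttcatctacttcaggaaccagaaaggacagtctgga
H2-Oa A_51_P449329: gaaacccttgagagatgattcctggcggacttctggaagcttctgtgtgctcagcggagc
H2-Ob A_52_P679470: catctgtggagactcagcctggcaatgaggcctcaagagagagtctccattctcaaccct
Ciita A_52_P109941: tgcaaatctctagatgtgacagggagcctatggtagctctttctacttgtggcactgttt
Psmb8 A_51_P345366: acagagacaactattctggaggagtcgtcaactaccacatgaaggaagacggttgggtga
Psmb9 A_51_P369803: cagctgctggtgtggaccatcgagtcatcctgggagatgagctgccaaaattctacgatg
On the mm7 build to which the array design refers, the H2-Ab1 probe lies at chr17:32345268-32345327 on the plus strand, the H2-Aa probe at chr17:32362310-32362369 on the minus strand, and the Psmb9 probe at chr17:32262147-32262206 on the minus strand. The H2-Oa probe lies at chr17:32174875-32174935 on the plus strand and the Ciita probe at chr16:10203747-10203806 on the plus strand. The interval of the H2-Eb1 probe, chr17:32392430-32392891 on the plus strand, and that of the Psmb8 probe, chr17:32280725-32281049 on the plus strand, are longer than the probe. Exon boundaries on that build were not used here.

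Several probes share sequence, which limits what a single gene's value means. In the pairs below, capitals mark the bases that are identical in the stretch where both probes align.
H2-Ab1 A_51_P215242: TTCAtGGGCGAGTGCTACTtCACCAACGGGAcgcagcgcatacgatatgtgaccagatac
H2-Ab1 A_52_P570717: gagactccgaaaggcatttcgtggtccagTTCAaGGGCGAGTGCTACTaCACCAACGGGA
H2-Q5 A_51_P400752: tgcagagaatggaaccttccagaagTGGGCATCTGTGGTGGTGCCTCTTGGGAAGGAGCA
H2-Q10 A_51_P496997: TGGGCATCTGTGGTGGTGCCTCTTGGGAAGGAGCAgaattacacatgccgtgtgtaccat
H2-Q7 A_51_P262079: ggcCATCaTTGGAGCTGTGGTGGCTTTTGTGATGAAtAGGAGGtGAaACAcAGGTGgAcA
H2-T23 A_51_P237754: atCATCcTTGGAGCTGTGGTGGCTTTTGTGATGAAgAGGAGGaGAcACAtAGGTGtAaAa
Both H2-Ab1 probes cover the same 31 bases in versions with 2 mismatches. The H2-Q5 and H2-Q10 probes share 35 bases without a mismatch, and the H2-Q7 and H2-T23 probes are identical at 50 of 59 aligned bases. The unsaturated H2-K1 probes also align with others: A_52_P50496 is identical to an H2-Q10 probe at 40 of 52 bases. A_52_P474242 is identical to an H2-Bl probe at 46 of 59. Signals of classical and nonclassical class I probes may therefore hold RNA of more than 1 gene, and how much was not measured. With no H2 haplotype given, the match of class I and class II probes to the animals' alleles could not be checked. Ratios may also hold a difference in that match between a sample and the pool, which was not tested.

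Of the 71 probes, 60, of 37 genes, were well above background in at least 1 dye on 2 or more arrays. The other 11 include the probes of H2-Ea, an alpha chain that some laboratory strains do not express, both probes of H2-Eb2, and those of H2-T3 and 7 H2-M genes. Of these 11, the H2-Eb2 probes were above background in the Cy5 signal of sample 3 alone, and the other 9 on no array. The Cy5 signal reached saturation in 6 kept probes: 2 of B2m, and 1 each of H2-K1, H2-Q1, H2-Q2 and H2-Q7. Counts and medians below are over the 54 kept probes without a saturated spot. They passed a filter on brightness and are not all members.

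None of the 60 kept probes passed an adjusted p of 0.05 in limma's moderated test over 32486 probes, of which 0.662% passed. Among probes without a saturated spot, 0.0972% of all 31890 passed and none of the 54 did. Before adjustment, 30 of the 54 (55.6%) were higher in Plk1(+/-) aortas at p under 0.05, against 8.98% of all probes, and 2 (3.70%) were lower, against 8.95%. The log2 ratio was above 0 on all 3 arrays for 36 of 54 (66.7%), against 25.6% of all probes, and below 0 on all 3 for 3 (5.56%), against 18.7%. The probe medians were 0.32, 0.23 and 0.63 in samples 1, 2 and 3, where the medians of all probes were 0.03, 0.01 and 0.03. In 44 of the 54 probes (81.5%) the highest ratio was in sample 3, as it was in 39.2% of all probes. Among the 44 are dim probes of H2-Bl and H2-Q1 that were kept on their Cy5 signals in samples 2 and 3. For such probes the brightness filter itself favours a high ratio in those samples. The 54 probes often measure the same gene or share sequence, and the samples share 1 pool, so these shares describe the arrays and are no test of the group.

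**Figure D1:**
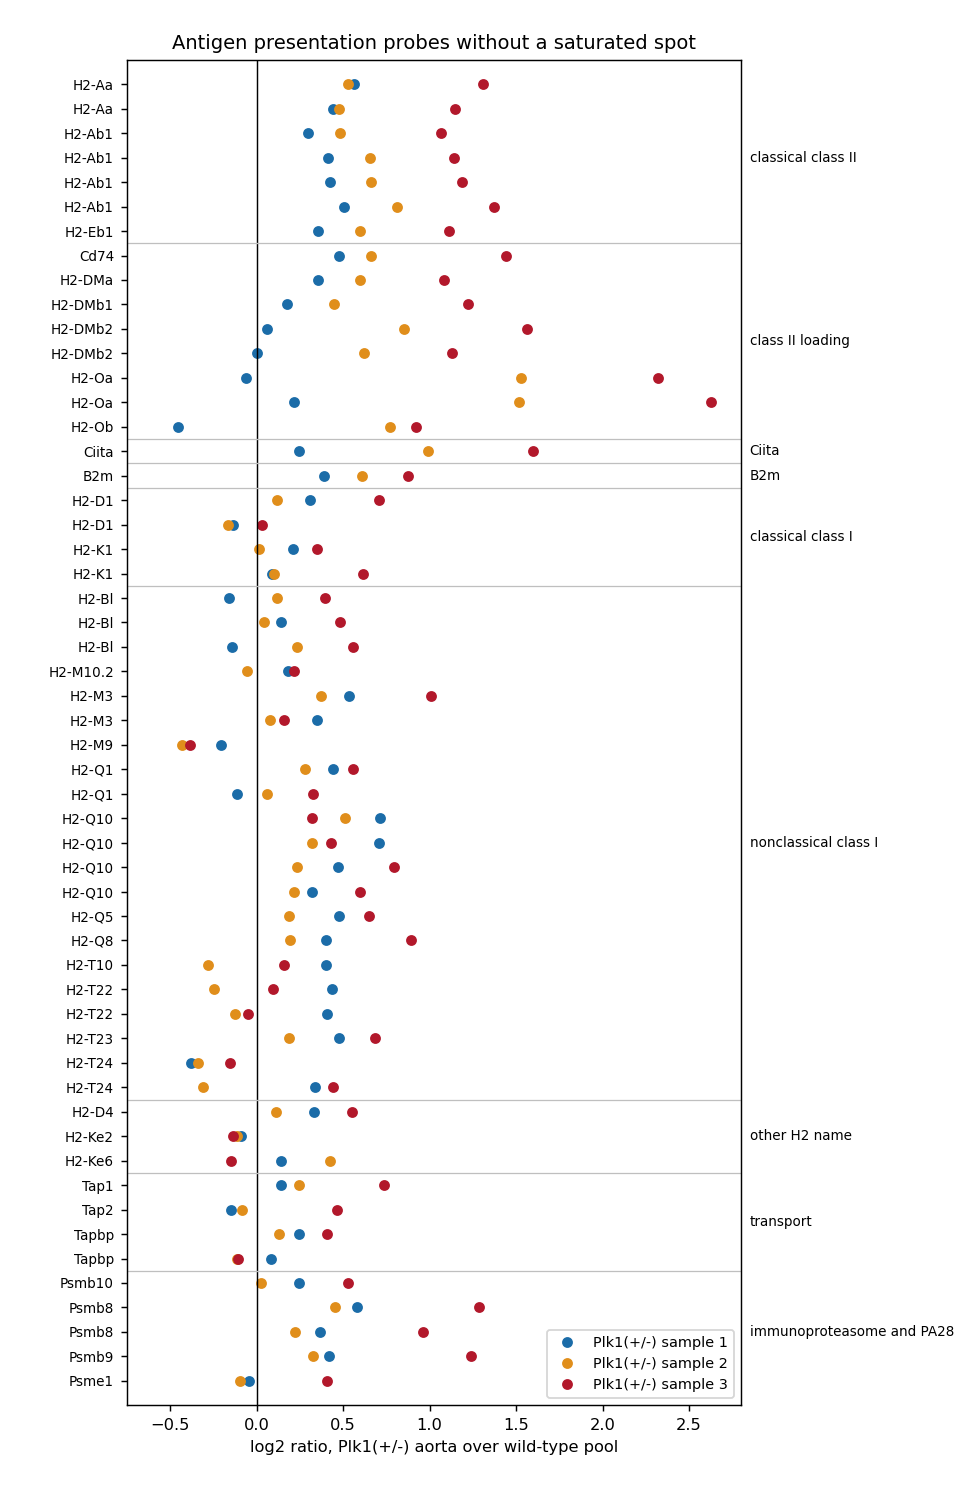
Log2 ratio of Plk1(+/-) aorta over the wild-type pool (x axis) for each of the 54 kept probes without a saturated spot (rows, named by gene and grouped by role). Points are the 3 Plk1(+/-) samples; sample 3 lies farthest to the right in 44 rows, and all 7 classical class II rows lie above 0 in every sample.

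The classical class II chains stood above the pool in every sample. H2-Ab1, the beta chain of I-A, was read by 10 spots of 1 probe and by 3 further probes. The 10-spot probe had normalised signals of 3788, 4851 and 6510 in Plk1(+/-) samples 1, 2 and 3, against 3079, 3468 and 3104 in the pool on the same arrays. The pool's signals lay close together and the Plk1(+/-) signals were all above them, with sample 3 highest. The log2 ratios were 0.30, 0.48 and 1.07, a mean of 0.62 with a standard error of 0.17 (n = 3, limma adjusted p = 0.20). Over its spots the SD was 0.05, 0.05 and 0.07, and the ranges of the 3 arrays, 0.23 to 0.38, 0.40 to 0.57 and 0.92 to 1.14, did not overlap. Spots of 1 array share a hybridisation and a normalization, so their spread does not measure the error between samples.

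**Figure D2:**
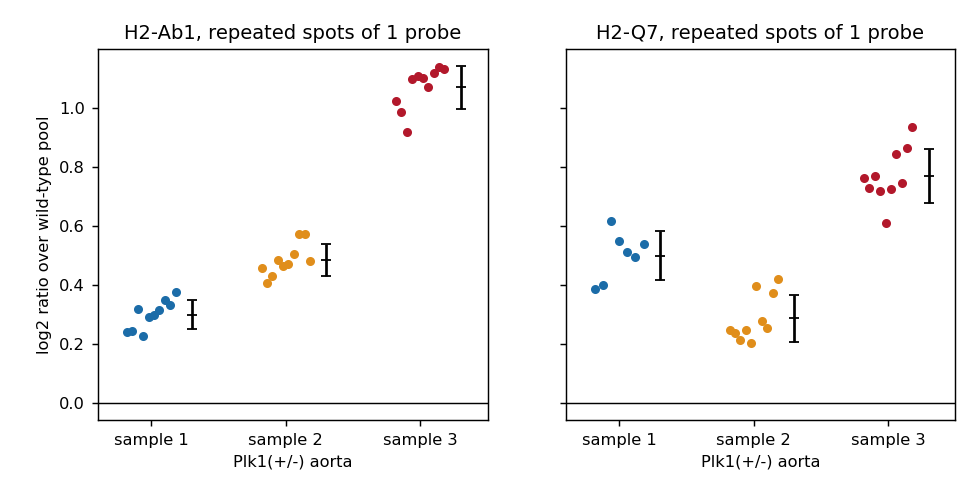
Log2 ratio over the wild-type pool of each unflagged spot (points) of the repeated H2-Ab1 probe (left) and H2-Q7 probe (right), for Plk1(+/-) samples 1, 2 and 3; bars give the mean and SD over spots. The H2-Ab1 spots form 3 separate bands, with sample 3 between 0.92 and 1.14, and 1 H2-Q7 spot of sample 3 was saturated in Cy5.

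The other probes of class II chains gave like values. The overlapping pair of H2-Ab1 probes, with 2 mismatches between their versions, read 0.41, 0.65 and 1.14 for one and 0.42, 0.66 and 1.18 for the other. The fourth H2-Ab1 probe read 0.51, 0.81 and 1.37. H2-Aa, the alpha chain of I-A, read 0.56, 0.53 and 1.31 on its brighter probe and 0.44, 0.48 and 1.14 on the other. H2-Eb1, the beta chain of I-E, had signals of 3227, 3796 and 5276 in Plk1(+/-) samples, against 2522, 2507 and 2436 in the pool, which gave log2 ratios of 0.36, 0.60 and 1.11. Over the 7 probes of these 3 genes the medians were 0.42, 0.60 and 1.14. Each was higher at an unadjusted p under 0.05, where 8.98% of all probes were, and the limma adjusted p values ran between 0.164 and 0.20.

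The genes that load class II read above the pool in samples 2 and 3 on every probe. Cd74, the invariant chain, had signals of 13874, 14895 and 23622 in Plk1(+/-) samples and 9983, 9422 and 8710 in the pool, with log2 ratios of 0.47, 0.66 and 1.44 (limma adjusted p = 0.187). H2-DMa and H2-DMb1, chains of the peptide exchange factor, read 0.36, 0.60 and 1.08 and 0.17, 0.45 and 1.23. H2-DMb2, another beta chain gene, read 0.06, 0.85 and 1.56 on one probe and 0.00, 0.62 and 1.13 on the other. All 8 loading probes had their lowest ratio in sample 1 and their highest in sample 3, an order found in 22.3% of all probes. Their median, averaged over samples, was 0.722, and 0.417 without sample 3.

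H2-Oa and H2-Ob encode H2-O, which restrains H2-DM and is best known from B cells. The H2-Oa probe shown above had signals of 182, 567 and 1350 in Plk1(+/-) samples, against 157, 198 and 219 in the pool. Its log2 ratios were 0.22, 1.52 and 2.63, the highest of any member in sample 3, and the mean of 1.45 had a standard error of 0.47 (n = 3, limma adjusted p = 0.233). The other H2-Oa probe read -0.06, 1.53 and 2.32. In sample 1, then, H2-Oa was near the pool's level, while in samples 2 and 3 it was far above. H2-Ob read -0.45, 0.77 and 0.92 (limma adjusted p = 0.488), and its pool signal was well above background on the array of sample 1 alone. The size of such dim ratios differed with the processing. The scanner's own log2 ratio, which differs in background correction, normalization and offset, was -0.59, 2.10 and 2.43 for H2-Ob and 0.37, 2.04 and 3.12 for the H2-Oa probe shown. With the offset alone lowered to 16, the mean for H2-Ob was 0.541, against 0.414 at 50 and 1.31 by the scanner's ratio.

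Ciita encodes the coactivator that class II promoters depend on. Its signals were 207, 383 and 556 in Plk1(+/-) samples and 175, 192 and 184 in the pool, which gave log2 ratios of 0.25, 0.99 and 1.60 (limma adjusted p = 0.209). Taken with H2-Oa, H2-Ob and H2-DMb2, the 6 probes of these genes had medians of 0.03, 0.92 and 1.58, against 0.42, 0.60 and 1.14 for the classical chains. This grouping was made with the values known and carries no test.

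**Figure D3:**
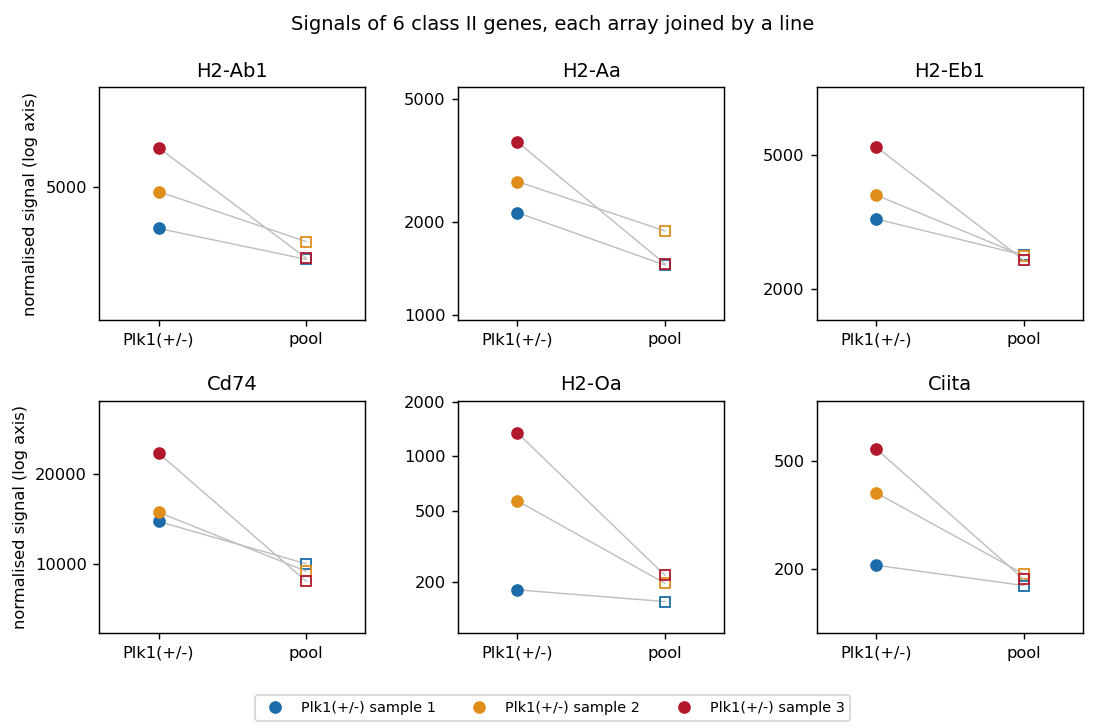
Normalised signal (log axis, arbitrary units) of 6 class II genes in Plk1(+/-) aortas (filled circles, left) and in the wild-type pool on the same array (open squares, right), 1 probe per gene. The pool's signals lie close together, and sample 3 has the highest Plk1(+/-) signal in each of the 6 panels.

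Markers of leukocytes are given beside the class II values. The 4 markers of all leukocytes (Ptprc, Coro1a, Cd53 and Laptm5) had median log2 ratios of 0.35, 1.13 and 1.79 in samples 1, 2 and 3, with summed signals of 6891, 13812 and 20701 in Plk1(+/-) samples, against 5055, 5532 and 5098 in the pool. The 10 B cell markers had medians of 0.08, 1.03 and 1.47, with summed signals of 3555, 10642 and 18013, against 3302, 3868 and 3583 in the pool. Ratios were above 0 in all samples for 6 of 10 B cell, 10 of 12 T cell, 4 of 9 dendritic cell and 2 of 11 macrophage markers, beside 25.6% of all probes. T cell medians were 0.14, 1.33 and 1.66, with summed signals of 4847, 11162 and 13916, against 4308, 4690 and 4577 in the pool. Cd3e, a chain of the T cell receptor complex, read 0.16, 0.02 and 0.16, and Cd8b1, a coreceptor chain, 0.03, 0.18 and -0.26. Among dendritic cell markers, 9 of 10 were kept (not Cd209a), and their medians were 0.08, 0.25 and 0.61, with summed signals of 6094, 9612 and 9621, against 6682, 7802 and 6608 in the pool. All B cell and T cell markers were well above background in at least 1 dye on 2 or more arrays.

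Macrophage markers lay closer to 0. The 11 of 12 without a saturated spot had medians of -0.11, -0.25 and 0.11, and their summed signals were 20908, 20741 and 22406 in Plk1(+/-) samples, against 21398, 22682 and 20699 in the pool. Endothelial medians were 0.08, -0.01 and -0.18. All 6 smooth muscle markers, which mark the aortic wall, were kept, and their medians, over the 3 without a saturated spot, were -0.25, -1.68 and -1.05, and those of adventitial fibroblasts, over 6 of 7, were -0.36, -0.71 and -0.42. Skeletal muscle markers, over 5 of 6, had medians of -0.69, -0.96 and -2.97, and 1 of 5 fat markers was free of saturated spots. No unsaturated member of any marker list passed the adjusted threshold. The part of leukocyte number in the class II values was not tested, and in tissue RNA more cells of a type and more RNA per cell cannot be told apart.

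**Figure D4:**
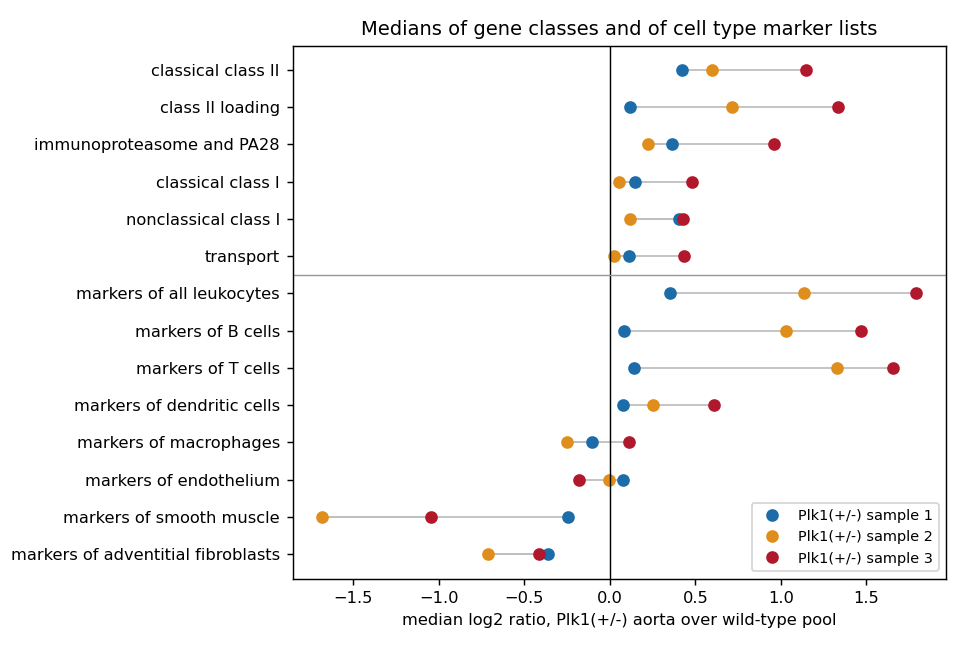
Median log2 ratio over the wild-type pool (x axis) of 6 classes of antigen presentation probes (above the line) and 8 cell type marker lists (below it), in Plk1(+/-) samples 1, 2 and 3. Class II loading probes and B cell and T cell markers lie between 0.08 and 0.14 in sample 1 and between 1.33 and 1.66 in sample 3, while macrophage markers lie between -0.25 and 0.11.

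B2m, the light chain of class I, has 1 probe below saturation, which read signals of 715, 961 and 973 in Plk1(+/-) samples, against 546, 631 and 530 in the pool. All 3 Plk1(+/-) signals were above the pool's on the same array. The log2 ratios were 0.39, 0.61 and 0.88, a mean of 0.62 with a standard error of 0.11 (n = 3, limma adjusted p = 0.151). The bright 10-spot B2m probe had Cy5 saturated on every array, in 9 of 9, 5 of 10 and 5 of 10 unflagged spots. After loess, the ratio of its mean signals was 1.55-fold over the pool, and that of the other saturated probe 1.12-fold. As mean log2 ratios these were 0.64 and 0.17, against 0.54 and 0.12 by the scanner's own ratio. The folds hold for the loess fit alone and are not lower bounds.

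The classical class I heavy chains were closer to the pool. H2-K1 read 0.21, 0.01 and 0.35 on one unsaturated probe and 0.09, 0.10 and 0.62 on the other, and its 10-spot probe was saturated in Cy5 in every spot, so it has no fold. H2-D1 had signals of 24925, 22097 and 31615 in Plk1(+/-) samples and 20147, 20320 and 19380 in the pool on its bright probe, with log2 ratios of 0.31, 0.12 and 0.71 (limma adjusted p = 0.249). Its other probe was dim and read -0.14, -0.17 and 0.03. Medians over the 4 unsaturated probes were 0.15, 0.06 and 0.48. Of the 4, 1 was higher at an unadjusted p under 0.05, where 8.98% of all probes were. Averaged over samples the median was 0.229, and 0.102 without sample 3.

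The nonclassical class I genes, 21 probes of 12 genes, are given by family, and no difference between families was tested. For H2-Q genes, of the Qa region, 7 of 8 unsaturated probes were higher at an unadjusted p under 0.05, where 8.98% of all probes were. The medians of the 8 were 0.46, 0.23 and 0.58. The eighth, a dim probe of H2-Q1, read -0.11, 0.06 and 0.33, and -1.60, -0.03 and 0.62 by the scanner's own ratio. It was kept on its Cy5 signal in samples 2 and 3, and its pool signal was well above background on no array. H2-Q7, on 7, 10 and 10 unflagged spots of its repeated probe, read 0.50 and 0.29 in samples 1 and 2. In sample 3, where 1 spot was saturated in Cy5, the 9 other spots read 0.79. Averaged over the 3 samples after loess, the ratio of this H2-Q7 probe was 1.43-fold over the pool. As a mean log2 ratio it was 0.52, against 0.45 by the scanner's own ratio, so the fold is not a lower bound. The 2 H2-Q10 probes named A_51_P230267 and A_51_P230269 read 0.71, 0.51 and 0.32 and 0.71, 0.32 and 0.43, with their highest value in sample 1. The H2-Q10 probe that shares 35 bases with H2-Q5 read 0.47, 0.23 and 0.79, and the H2-Q5 probe 0.48, 0.19 and 0.65. Probes of H2-Q10 thus differed in which sample was highest.

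The 6 H2-T probes had medians of 0.41, -0.26 and 0.13. H2-T10 and H2-T22, which are known as ligands of some gamma-delta T cells, read 0.40, -0.28 and 0.16 for H2-T10, and 0.44, -0.24 and 0.09 and 0.41, -0.12 and -0.05 for the H2-T22 probes. Sample 1 was the highest and sample 2 the lowest on all 3 of these probes. H2-T23, the Qa-1 heavy chain, instead read 0.48, 0.19 and 0.69, close to the H2-Q7 probe with which it shares most bases. H2-T24 read -0.38, -0.34 and -0.15 on a dim probe and 0.34, -0.31 and 0.44 on the other. H2-M3, which shows N-formylated peptides, read 0.53, 0.37 and 1.01 on its brighter probe but 0.35, 0.08 and 0.16 on the other, and H2-M9 read -0.21, -0.43 and -0.39. The 3 H2-Bl probes read -0.16, 0.12 and 0.39 (A_51_P247114), then 0.14, 0.04 and 0.48 (A_52_P350519), then -0.14, 0.23 and 0.56 (A_52_P560113). A_51_P247114 and A_52_P560113 were dim and were kept on their Cy5 signal in samples 2 and 3. The pool was well above background only on the array of sample 3 for A_51_P247114, and on no array for A_52_P560113. By the scanner's own ratio A_52_P560113 read 0, 1.43 and 1.89, so the size of its ratios is uncertain. Over the 21 nonclassical probes the limma adjusted p values ran between 0.157 and 0.762.

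The immunoproteasome subunits were above the pool in every sample. On its brighter probe Psmb8 had signals of 6354, 5716 and 9665 in Plk1(+/-) samples, against 4246, 4179 and 3965 in the pool. The log2 ratios of that probe were 0.58, 0.45 and 1.29 (limma adjusted p = 0.185). The other Psmb8 probe read 0.37, 0.23 and 0.96 (limma adjusted p = 0.229). Psmb9 had 4005, 3967 and 7543 in Plk1(+/-) samples, against 2996, 3164 and 3193 in the pool, with log2 ratios of 0.42, 0.33 and 1.24 (limma adjusted p = 0.224). Psmb10 read 0.24, 0.03 and 0.53. Their constitutive counterparts Psmb5, Psmb6 and Psmb7, which hold the same catalytic places in the standard proteasome, read 0.06, 0.00 and -0.20, then 0.18, 0.02 and 0.02, then -0.07, 0.05 and -0.19. With the brighter Psmb8 probe, the difference of log2 ratios was 0.52, 0.45 and 1.48 for Psmb8 less Psmb5. It was 0.24, 0.31 and 1.22 for Psmb9 less Psmb6, and 0.31, -0.02 and 0.72 for Psmb10 less Psmb7. Psme1, a subunit of the PA28 activator, read -0.04, -0.10 and 0.41. The median of the 5 probes, averaged over samples, was 0.517, and 0.295 without sample 3.

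For transport and loading, Tap1 read 0.14, 0.25 and 0.74 (limma adjusted p = 0.263) and Tap2 -0.15, -0.09 and 0.47. Tapbp, which encodes tapasin, read 0.25, 0.13 and 0.40 on its bright probe and 0.08, -0.11 and -0.10 on the dim one. The median of these 4 probes, averaged over samples, was 0.19, and 0.067 without sample 3. Among names in H2 that were put in none of the classes above, H2-Ke2 (now Pfdn6, a prefoldin subunit) read -0.09, -0.11 and -0.13. H2-Ke6 (now Hsd17b8, a steroid dehydrogenase) read 0.14, 0.43 and -0.15. H2-D4, which the class lists did not hold and whose role was not assessed here, read 0.33, 0.11 and 0.55.

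Of 45 listed genes of the same pathways outside the naming rule, 40 were kept without a saturated spot. None of the 40 passed the adjusted threshold in limma; 13 were higher and 3 lower at an unadjusted p under 0.05, where 8.98% and 8.95% of all probes were, and their medians were 0.06, 0.07 and 0.20. Ctss, the protease that trims the invariant chain, read 0.78, 0.96 and 1.77 (limma adjusted p = 0.151), while the lysosomal thiol reductase Ifi30 read -0.07, 0.23 and 0.79 and Lgmn, an endopeptidase, read -0.01, -0.16 and -0.11. Irf8, a transcription factor of B cells and dendritic cells, read 0.43, 1.60 and 2.38 (limma adjusted p = 0.196). Irf1, which drives immunoproteasome and class I transcription, read 0.56, 0.10 and 0.31, and Rfx5 read -0.30, 0.11 and -0.12. Another kept probe had a mean of 0.90 for Irf8 and 0.02 for Irf1, against 1.47 and 0.32 for the brightest probes. No probe was found for Nlrc5.

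Further named genes of this list had the smallest p values among the rest. Tapbpl, a tapasin relative, read 0.29, 0.31 and 0.25, and the chaperone Calr read -0.19, -0.39 and -0.34. Jak1, a kinase of cytokine receptors, read 0.25, 0.35 and 0.63, and the proteasome subunit Psma1 read 0.19, 0.36 and 0.44. Their limma adjusted p values lay between 0.178 and 0.187. All 4 kept one sign in the 3 samples. Ctsb, a lysosomal protease that the same rule chose, was saturated in Cy5 on every array and is given no fold. Of the 5 costimulation genes, Cd40, Cd83, Cd86 and Icosl were higher at an unadjusted p under 0.05, where 8.98% of all probes were. None of the 5 passed the adjusted threshold in limma, and their medians were 0.07, 0.59 and 0.85.

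The position in the genome was compared with the neighbours. Between H2-K1 and H2-M2 on chromosome 17, 103 measured genes outside the rule had medians of -0.01, 0.01 and 0.07. Of them, 25 (24.3%) were above 0 in all samples, near the 25.6% of all probes. At an unadjusted p under 0.05 in limma, 13 (12.6%) were higher and 9 lower, where 8.98% and 8.95% of all probes were. The neighbours are read by their brightest probe, while the shares of all probes count every probe. In that gene order the class II chains, H2-DM and H2-O genes, Psmb8, Psmb9, Tap1 and Tap2 stand within the first 18 measured genes.

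**Figure D5:**
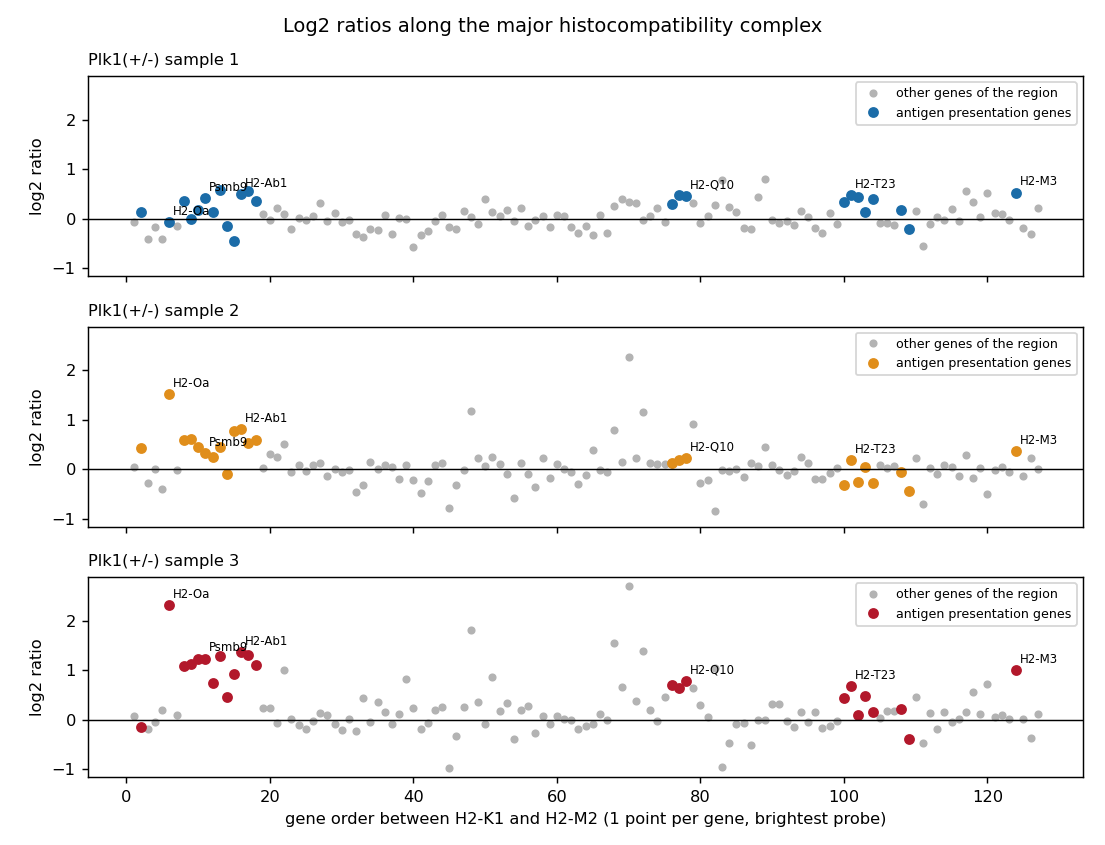
Log2 ratio over the wild-type pool (y axis) in gene order between H2-K1 and H2-M2 (x axis, 1 point per gene without a saturated spot), with 1 panel for each of Plk1(+/-) samples 1, 2 and 3. Genes of the naming rule, H2-Ke6 among them, are coloured and labelled antigen presentation genes, and other genes of the region are grey. In sample 3 the coloured genes at the left lie mostly above 1, while the grey median is 0.07.

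Promoter sequence was read in windows of 250 bases before to 50 after the annotated starts, which RefSeq gives on GRCm38.p6 for 34 of the 47 member genes. MHC promoters are known to share an X2 box followed by a Y box. The X2 core was searched here as TGACG and the Y core as ATTGG. X2 boxes spelled with other letters were not searched. Searched on both strands, TGACG is in 20.8% and ATTGG in 37.4% of all 32851 promoters. An X2 core followed 24 to 26 bases later, first letter to first letter, by a Y core is in 92 promoters (0.280%), and in those of 6 member genes: B2m, H2-K1, H2-D1, H2-Q7, H2-M3 and H2-Aa. That spacing was set after the matches were seen. Windows around the pair follow, 5′ to 3′ along each gene, with both cores in capitals.
B2m: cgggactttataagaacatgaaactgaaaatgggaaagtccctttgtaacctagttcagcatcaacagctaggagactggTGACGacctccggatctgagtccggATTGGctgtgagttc
H2-K1: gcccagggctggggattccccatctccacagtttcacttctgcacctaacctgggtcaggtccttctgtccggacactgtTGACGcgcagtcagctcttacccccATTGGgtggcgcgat
H2-D1: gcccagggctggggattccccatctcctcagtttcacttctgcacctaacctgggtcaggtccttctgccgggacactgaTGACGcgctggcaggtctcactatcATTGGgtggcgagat
H2-Q7: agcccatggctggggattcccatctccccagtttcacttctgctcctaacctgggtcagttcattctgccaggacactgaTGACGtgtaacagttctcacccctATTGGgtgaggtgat
H2-M3: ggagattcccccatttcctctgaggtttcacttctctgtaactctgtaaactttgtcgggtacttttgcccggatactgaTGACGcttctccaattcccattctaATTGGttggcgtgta
H2-Aa: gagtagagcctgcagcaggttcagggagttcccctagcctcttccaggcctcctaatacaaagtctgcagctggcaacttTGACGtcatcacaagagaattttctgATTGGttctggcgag
These windows lie at chr2:122147529-122147648 on the plus strand for B2m, chr17:34000349-34000468 on the minus strand for H2-K1, chr17:35262913-35263032 on the plus strand for H2-D1, chr17:35439011-35439129 on the plus strand for H2-Q7, chr17:37270108-37270227 on the plus strand for H2-M3 and chr17:34287857-34287977 on the minus strand for H2-Aa. The mean log2 ratios were 0.19 and 0.27 for the unsaturated H2-K1 probes, 0.38 and -0.09 for the H2-D1 probes, 0.62 for the unsaturated B2m probe, 0.64 and 0.19 for the H2-M3 probes and 0.80 and 0.69 for the H2-Aa probes. Of 8 windows of the kept class II chain and loading genes, 7 hold a Y core and 1 an X2 core spelled TGACG. H2-DMa gave more than 1 of these windows, and H2-Ab1, Cd74 and Ciita had none. The other windows may hold an X2 box in other letters, so its absence is not shown. The other letters searched on both strands, GAAANNGAA, TTCNNNGAA and GGGANTCCC, are in 8.56%, 8.30% and 0.767% of all promoters. GGGANTCCC, which NF-kappa B can bind, is in windows of H2-K1, H2-D1 and H2-Q7, and GAAANNGAA in those of B2m, H2-T22, H2-T23 and Psme1. A match is a run of letters, and binding was not measured here.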

How the data were processed

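RNA was compared on 3 two-colour Agilent arrays, Plk1(+/-) in Cy5 and the pool in Cy3. Per the file headers, the scanner files hold spot intensity values from Feature Extraction 9.5.3.1, and the mean signals used here carry no background correction. The log10 ratio in those files, of processed Cy5 over Cy3, was deposited beside them and served as an alternative. The authors' deposited series table holds log2 ratios for 28817 probes, with slopes on the scanner ratio between 0.997 and 0.999 and medians of -0.02, -0.0052 and -0.03, so its scale and direction are known and its centring is not given in the sources used here. The labels' growth protocol concerns embryonic stem cells; the tissue label, aorta, was followed.

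Signals were corrected with normexp (offset 50) and loess within each array, giving controls weight 0 (limma 3.58.1, R 4.3.3). Flagged spots (136, 109 and 100) were left out, spots of a probe averaged, and a probe was kept if 1 dye or both stood well above background on 2 or more arrays. Each log2 ratio was set against 0 in a two-sided test by lmFit and eBayes, and p values were adjusted by Benjamini-Hochberg over 32486 probes. The test was checked on simulated data. Medians of mean signals were 335, 357 and 337 in Cy5 and 163, 165 and 155 in Cy3, against backgrounds of 70 to 71 and 52 to 53; the number of arrays limits the precision, and p values measure only the spread between these 3 samples. Names were updated through GRCm38.p6: 22951 by accession, 6659 already current and 3109 by synonym, while 8455 stayed as in the files. All kept member classes are named; of pathway genes outside the rule, 11 fixed names and the 5 others with the smallest unadjusted p were to be named. One of the fixed names is not reported here. For genes outside the rule the brightest probe stands for the gene. Members and lists were chosen with earlier results of these data known. Sequences are the deposited probes and RefSeq promoters (GRCm38.p6). 13 alternatives were tried.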

Additional observations from a re-analysis of the deposited data

How the results depend on the processing

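No member probe passed the adjusted threshold under 12 of 13 alternatives. The exception was median centring in place of loess, which gave 43 of 60 member probes (40 higher) and 13590 probes in all (9311 higher, against 10 of 215 with loess), with the median of all probes at 0.18 against 0.03 with loess. Medians under it were 0.701 for classical class I, 1.13 for classical class II, 0.968 for immunoproteasome and PA28, 0.548 for transport and 0.535 for nonclassical class I, against 0.229, 0.722, 0.517, 0.19 and 0.316. Under the other alternatives these medians and that of class II loading moved by less than the SD between samples. Moves of over 1.5 times came without sample 3 (classical class I 0.102, transport 0.067, immunoproteasome and PA28 0.295, class II loading 0.417 against 0.722), with the brightest probe per gene (classical class I 0.378) and with no filter on dim probes (nonclassical class I 0.182). The alternatives for nonclassical class I and class II loading were added after seeing the data. Over all probes 215 passed, against 100 with the scanner's log ratio, 142 with offset 16, 0 without saturated probes (5697 at an unadjusted p under 0.05), 556 with array weights and 0 to 293 when 1 sample was left out (0 without sample 2 or without sample 3). The sign of single probes changed as follows. With median centring they read H2-Bl -0.185 and -0.215, H2-M10.2 -0.089, H2-Q1 A_52_P231729 -0.375, H2-Ke2 0.373 and Tapbp A_52_P684830 0.273. With the scanner's ratio that H2-Q1 probe read -0.334. With array weights H2-T10 read -0.075, H2-T22 -0.058 and -0.014 and H2-T24 A_52_P581082 -0.051. When 1 sample was left out, the range was -0.061 to 0.281 for H2-T10 and -0.076 to 0.264 and -0.087 to 0.180 for the H2-T22 probes (below 0 without sample 1), -0.0024 to 0.284 for H2-Ke6 (below 0 without sample 2), and -0.070 to 0.184 for Psme1, -0.022 to 0.255 for H2-Bl A_51_P247114, -0.027 to 0.194 for that H2-Q1 probe and -0.118 to 0.190 for Tap2 (below 0 without sample 3). The causes were not tested. No paired analysis was possible because every sample belongs to 1 group and is read against the same pool. In 8 of the 54 probes the pool was not well above background on some array, which limits their ratios.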

Other observations

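Among genes of the MHC region outside the naming rule, a few stood far from their neighbours, and they were picked after their values were seen. Ltb, which encodes lymphotoxin beta, a cytokine of lymphocytes, read log2 ratios of 0.35, 2.27 and 2.70 in Plk1(+/-) samples 1, 2 and 3 (limma adjusted p = 0.204). Lta, its partner, read -0.02, 1.15 and 1.39, and Aif1, a protein of macrophages and microglia, read 0.26, 0.80 and 1.56. The gene listed as D17H6S56E-5 read 0.05, 1.19 and 1.82. Hspa1a, an inducible heat shock protein, read -0.16, -0.77 and -0.98.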
